A study of Mus musculus with 2 samples.

Results

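The 7 mouse globin genes described here are the adult alpha-type genes *Hba-a1* and *Hba-a2*, the embryonic alpha-type gene *Hba-x*, the adult beta-type genes *Hbb-bs* and *Hbb-bt*, and the embryonic beta-type genes *Hbb-bh1* and *Hbb-y*. They were taken by symbol from the 28000 genes counted, and all 7 were found. Unique molecular identifiers (UMIs), each the tag of 1 RNA molecule, were read in 1 HIRA WT and 1 HIRA KO 3′ single-cell library of tdTomato+ cells sorted from trunk skin at E15.5. HIRA is a histone chaperone, and the study asked what its loss in the pigment lineage does to the melanoblasts of the embryo. WT stands for *TyrCre::Hira* wt/wt:*tdTomato* and KO for *TyrCre::Hira* fl/fl:*tdTomato*. Both genotypes carry Cre under the *Tyr* promoter and a LSL-tdTomato reporter on a mixed background close to C57BL/6J. Cre under this promoter also acts in cells other than pigment cells, so the sort on tdTomato takes more than melanoblasts. Per the study's methods, each library came from a single embryo.

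Haemoglobin is built from alpha-type and beta-type globin chains, each holding haem. In the mouse, *Hba-x*, *Hbb-bh1* and *Hbb-y* are used by primitive erythroid cells from the yolk sac. Definitive erythroid cells from the fetal liver use *Hba-a1* and *Hba-a2* with *Hbb-bs* and *Hbb-bt*, the adult beta genes of the C57BL/6 haplotype. The adult alpha-type genes are not read here as a sign of either lineage. Other cells of the skin are not known to make globin at erythroid levels, but RNA released from broken cells (free RNA) enters the droplets of every cell type.

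The WT library held 1546 barcodes, each read as 1 cell, with 7073939 UMIs and a median of 3961 UMIs and 1484.5 genes per barcode. The KO library held 846 barcodes with 5049514 UMIs and a median of 5152.5 UMIs and 1785 genes. The libraries shared 0 barcodes, and doublets were neither called nor removed. Barcodes with under 100 genes, over 40000 UMIs or over 10% mitochondrial UMIs were removed, which left 1540 WT and 828 KO barcodes. There was 1 library per genotype and so no replicate: ranges in parentheses are 95% intervals that cover counting error only, and cells are not replicates. *Xist*, which is expressed from the inactive X chromosome, had 16825 UMIs in WT and 24 in KO, and the Y-linked genes summed to 1 and 594. The libraries thus differed in sex as well as in genotype, and the parts of sex and genotype in any difference below cannot be told apart. *Hira* had 82 UMIs in WT and 51 in KO over the whole libraries, and these 3′ counts do not separate the genotypes.

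In all barcodes together, the 7 globin genes had 26035 UMIs in WT, or 0.368% of the library, and 131797 in KO, or 2.61%. A barcode is called erythroid here when at least 10% of its UMIs are of the 7 genes. The rule uses the globin level, so a high level in these barcodes is no finding. Before any filter, 8 WT and 25 KO barcodes met it, and they held 97.3% of the globin UMIs of the WT library and 95.5% of those of the KO library. The barcodes nearest to the threshold lay far from it on both sides. Just inside, the lowest erythroid share was 93.3% in WT and 89.6% in KO among barcodes that passed the filters, and just outside, the highest share was 1.17% in WT and 0.736% in KO. No barcode of either library fell in between, so the call did not depend on where in that gap the threshold was put.

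**Figure D1:**
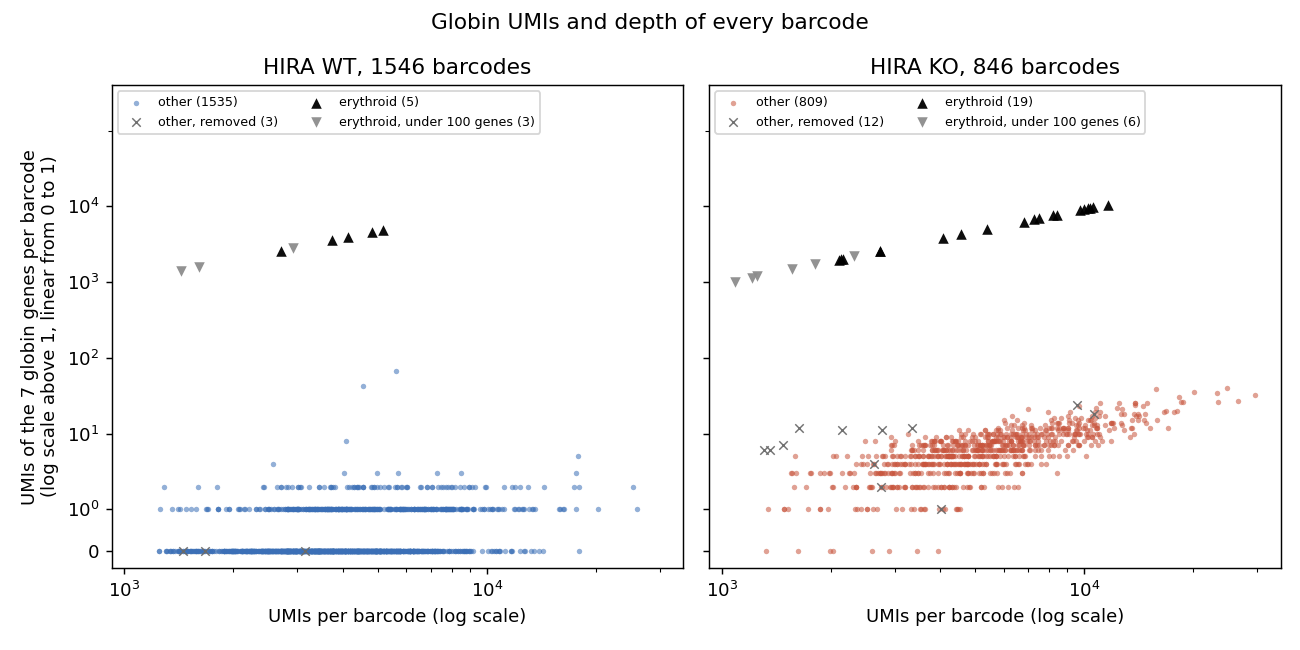
Globin UMIs (vertical axis, log scale above 1) against all UMIs (horizontal axis, log scale) of each barcode of the WT and KO libraries, with erythroid barcodes as triangles and removed barcodes in grey. Other cells with no globin UMI number 1060 of 1535 in WT and 8 of 809 in KO, and a pair of WT cells with 42 and 66 globin UMIs stand above the rest of that library.

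After the filters, 5 of 1540 WT barcodes were erythroid, a share of 0.325% (exact Clopper-Pearson interval 0.106% to 0.756%), and 19 of 828 KO barcodes, a share of 2.29% (1.39% to 3.56%). Without filters the shares were 0.517% (0.224% to 1.02%) and 2.96% (1.92% to 4.33%). The KO library thus held the larger share of erythroid barcodes both ways, with intervals that do not overlap. These cells have few genes, 105 to 224 in WT (median 134) and 102 to 644 in KO (median 372), so a minimum of 500 genes left 0 WT and 4 KO erythroid barcodes. Erythroid barcodes were also shallower in WT, at 2714 to 5162 UMIs (median 4148), than in KO, at 2109 to 11655 (median 7295). How dissection, blood in the tissue and the tdTomato sort set these shares was not tested. The tdTomato transcript had 55 UMIs in the other WT cells and 70 in the other KO cells, against 0 UMIs in the 5 WT and 1 UMI in the 19 KO erythroid barcodes. At the other cells' level per non-globin UMI, the tdTomato and Cre sequences together would give 0.0111 UMIs in WT and 0.170 in KO erythroid barcodes. Counts of 0 and 1 therefore cannot show a lack of tdTomato there.

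In the erythroid barcodes, *Hbb-bs*, the adult beta-type gene with the most UMIs, had 1006 to 1874 UMIs per barcode in WT (median 1561) and 721 to 3800 in KO (median 2564). *Hba-a1* had 752 to 1400 (median 970) in WT and 522 to 2631 (median 1697) in KO. *Hba-a2*, the second adult alpha-type gene, had 515 to 1393 (median 896) and 451 to 2903 (median 1625). The barcodes of the libraries overlap in the UMIs of each of these genes, with higher medians in the deeper KO barcodes. *Hbb-bt*, the second adult beta-type gene, was the lowest of the adult genes in both libraries, with 305 to 563 UMIs (median 515) in WT and 229 to 1472 (median 676) in KO. The adult genes had at least 1 UMI in each of the 24 erythroid barcodes.

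As shares of the globin UMIs, which set depth aside, the adult genes were close in both libraries. UMIs count molecules by their 3′ end and were not scaled by transcript length. *Hbb-bs* made up 38.5% (37.8% to 39.2%) of the globin UMIs in WT erythroid barcodes and 38.3% (38.0% to 38.6%) in KO. *Hba-a1* made up 25.8% (25.2% to 26.4%) and 25.1% (24.9% to 25.4%), *Hba-a2* 23.8% (23.2% to 24.4%) and 25.2% (25.0% to 25.5%), and *Hbb-bt* 11.8% (11.4% to 12.3%) and 11.4% (11.2% to 11.5%). The order was *Hbb-bs*, the alpha-type pair, *Hbb-bt* in both libraries, and the alpha-type neighbours in that order did not differ beyond their intervals in KO but did in WT, where *Hba-a1* was the higher. Between libraries the intervals overlapped for *Hbb-bs*, *Hba-a1* and *Hbb-bt*, and did not for *Hba-a2*.

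Beta-type and alpha-type UMIs were near balance. Beta-type genes made up 50.4% (49.7% to 51.1%) of the globin UMIs of WT erythroid barcodes and 49.7% (49.4% to 49.9%) of those of KO. Single barcodes spread more widely, from 42.0% to 55.9% (median 52.6%) in WT and from 45.4% to 56.9% (median 49.1%) in KO. The spread between barcodes of 1 library was therefore larger than the difference between the libraries, and without the barcode with most embryonic UMIs in each the order turned, to 49.1% in WT and 49.5% in KO. *Hbb-bt* took 23.5% (22.7% to 24.3%) of the beta-type UMIs in WT and 22.9% (22.5% to 23.2%) in KO, and *Hba-a2* took 48.0% (47.0% to 49.0%) of the alpha-type UMIs in WT and 50.1% (49.7% to 50.5%) in KO. The copies of each pair are nearly the same in sequence, and of the 90-base windows in the last 400 bases of the *Hba-a1* transcript 71.1% also occur in *Hba-a2*, with 48.9% for *Hbb-bs* in *Hbb-bt*. Reads from such stretches cannot be placed on 1 copy, so the split within each pair is less sure than the sum of the pair.

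Embryonic globin was close to absent from these cells. *Hbb-bh1*, the embryonic beta-type gene, had 1 UMI in 1 of the 5 WT erythroid barcodes and 13 UMIs in 11 of the 19 KO ones, with at most 3 in a barcode. *Hba-x*, its alpha-type partner, had 2 UMIs in 2 WT barcodes and 7 UMIs in 4 KO barcodes. *Hbb-y* had 0 UMIs in the whole of either library, where a level of up to 0.424 counts per 1000000 UMIs (CPM) in WT and 0.594 CPM in KO would be missed. Together the 3 embryonic genes made up 3 of 19540 globin UMIs in WT, a share of 0.0154% (0.00317% to 0.0449%), and 20 of 117185 in KO, a share of 0.0171% (0.0104% to 0.0264%). The shares did not differ detectably between the libraries at this depth. Without the barcode with most embryonic UMIs in each library they were 0.00626% (0.000159% to 0.0349%) in WT and 0.0144% (0.00825% to 0.0234%) in KO. With at least 500 genes per barcode the KO share was 0.00766%. No erythroid barcode that passed the filters had more than 0.0561% embryonic UMIs in WT or 0.0638% in KO, so none of the 24 had a globin content led by the embryonic genes. These genes share none of those 90-base windows with *Hba-a1* (for *Hba-x*) or *Hbb-bs* (for *Hbb-bh1*). Of the other globin genes in the files, *Hbb-bh2* had 0 UMIs in both libraries, and *Hbq1a* and *Hbq1b* had 3 and 2 UMIs in KO erythroid barcodes and 0 elsewhere.

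Genes outside the rule were read to check the name erythroid. In both libraries globins took so much of each erythroid barcode that 1059 non-globin UMIs remained in WT and 9594 in KO, over all erythroid barcodes. Levels are given as CPM, and a gene was called when its CPM in erythroid barcodes was at least 2-fold that in the other cells of the same library. Genes with at least 20 UMIs in both groups of cells together were read. All 4 adult globin genes were higher in erythroid barcodes by the rule itself, and 0.807% of all 11035 genes read were called in WT and 0.349% of 10607 in KO. Scaled by non-globin UMIs, an alternative added after seeing the data, 3.33% and 13.2% were called. The scaling decides how many genes pass, 89 against 368 in WT and 37 against 1396 in KO. On either scale 95.4% of the genes read in WT and 75.2% of those in KO had 0 UMIs in erythroid barcodes.

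*Alas2*, the erythroid enzyme that starts haem synthesis, had 8 UMIs in 2 WT and 87 in 18 KO erythroid barcodes, and 1 and 6 UMIs in the other cells. This gene had no part in choosing the barcodes and fits the name erythroid as well. At 0 in both libraries' erythroid barcodes were *Klf1* and *Gata1*, which encode erythroid transcription factors.

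The genes around haemoglobin differed by group. In the gene lists here and below, counts are given for CPM of all UMIs first and for CPM of non-globin UMIs after it. Over all genes read, 0.807% and 3.33% were called in WT and 0.349% and 13.2% in KO. A single UMI equals 944 CPM of non-globin UMIs in WT and 104 CPM in KO. On that scale 1 UMI is therefore enough to call a gene of low level in the other cells. Of the haem synthesis genes, *Fech*, which inserts the iron, had 2 UMIs in WT and 11 in KO and was called on both scales in both libraries, and *Urod* had 0 and 4 and *Ppox* 0 and 1, with calls in KO on the second scale alone. *Alas1*, *Alad*, *Uros* and *Cpox* had 0 in both. Of the iron supply list, 1 and 3 of 8 were called in WT and 1 and 3 of 7 in KO. Its ferritin genes *Ftl1* (38 and 202 UMIs) and *Fth1* (24 and 86) passed after globins were set aside, and the mitochondrial iron carrier gene *Slc25a37* (1 and 17) passed on both scales. The other listed genes, *Tfrc*, *Slc25a38*, *Slc11a2*, *Steap3* and *Abcb10*, had 0 UMIs in the erythroid barcodes of both libraries. The ferritin genes fell below the other cells' level on the scale of all UMIs, so their direction depends on the scaling.

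Of the 5 red cell enzyme genes with enough UMIs to be read, 3 and 5 were called in WT and 2 and 5 in KO. The shares over all genes read were 0.807% and 3.33% in WT and 0.349% and 13.2% in KO. *Car1* and *Pklr* of this list had 0 UMIs in the erythroid barcodes of both libraries and too few elsewhere to be read. *Bpgm*, whose enzyme makes the ligand that lowers the oxygen affinity of haemoglobin, had 8 and 33 UMIs, the carbonic anhydrase gene *Car2* 6 and 14, the peroxiredoxin gene *Prdx2* 11 and 35, and *Blvrb* 5 and 6. On the scale of all UMIs *Prdx2* stood at 0.915-fold the other cells' level in WT and 0.532-fold in KO, and *Blvrb* at 0.720-fold in KO. Their direction there depends on the scaling, as it does for the ferritin genes. Of the membrane and skeleton genes, *Epb41* had 1 and 4 UMIs, *Slc4a1* 0 and 3 and *Rhag* 0 and 3. Of the late maturation genes, *Mkrn1* (5 and 54 UMIs) and *Ube2l6* (4 and 26) were called on both scales and *Bnip3l* (3 and 19), which acts in the removal of mitochondria, on the second alone, while *Xpo7* (0 and 2) and *Ube2o* (0 and 1) were called in KO alone, on that scale. These are enzymes, membrane proteins and late genes of red cells, and several of the calls rest on 1 or 2 UMIs. On the second scale such calls show that a UMI was found and cannot show a raised level.

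Regulators had few UMIs, at levels where a count of 0 says little. Of the erythroid transcription factor list, 0 and 1 of 2 genes were called in WT and 0 and 2 of 2 in KO, from *Lmo2* with 2 and 2 UMIs and *Ldb1* with 0 and 1, and the other 6 had 0. The list summed to 2 and 3 UMIs against 0.0940 and 0.537 at the other cells' level per non-globin UMI, above that level by very few UMIs. Of the regulators of the switch between embryonic and adult globins, 0 and 0 of 6 were called in WT and 0 and 1 of 5 in KO. *Bcl11a*, a repressor of embryonic globin, had 0 and 2 UMIs, and *Sox6*, *Myb*, *Zbtb7a*, *Lin28b*, *Igf2bp1* and *Hbs1l* had 0 in both. The switching list had 0 and 2 UMIs where the other cells' level per non-globin UMI gives 0.141 and 1.35. In WT its absence was thus not detectable at this depth, and in KO 2 UMIs are too few to set apart from that level. Cycling genes had 0 calls of 8 on either scale in both libraries, with 0 UMIs in WT against 1.04 at the other cells' level and 7 in KO against 7.95. The list of haemoglobin and haem clearance had 0 and 0 of 8 called in WT and 0 and 2 of 7 in KO, from 6 UMIs of *Slc48a1* and 1 of *Slc40a1*.

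Markers of other cell types were read in the erythroid barcodes as whole lists, against the UMIs that the level of the library's other cells per non-globin UMI would give. The glial list is not given, because its result needs an item withheld for evaluation. In KO, the 10 keratinocyte markers summed to 72 UMIs against 71.0 (most abundant *Krt1*), the 7 neutrophil markers to 34 against 31.2 (*S100a8*) and the 11 mesenchymal markers to 26 against 36.6 (*Col1a2*). Further KO sums were 5 against 4.45 for melanoblast, 5 against 8.91 for macrophage, 3 against 2.41 for mast cell, 1 against 1.98 for adipocyte and 0 for endothelial, pericyte, muscle and neuron markers. In WT, the mast cell list had 4 UMIs against 3.76, the mesenchymal list 2 against 1.85, the macrophage list 1 against 2.50 and the keratinocyte list 1 against 0.389. The WT melanoblast, neutrophil and adipocyte lists had 0 against 0.979, 0.974 and 0.930, and the endothelial and pericyte lists 0. In KO the keratinocyte and neutrophil sums were thus close to the level of the other cells, the WT sums were too small to compare, and the part of such RNA in the lists above was not tested.

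The genes most like the globins over single cells were sought by Pearson's r with the summed globins across 1540 WT and 828 KO barcodes, on log-scaled UMIs per 10000. These points share library and depth, and the values are a description. Among 12144 genes ordered by the lower r of the libraries, *Alas2* was near the top, with r of 0.372 in WT and 0.813 in KO. Further down came *Car2*, *Ube2l6*, *Bpgm*, *Cd24a*, *Syt14*, *Mkrn1*, *Epb41*, *Isg20* and *Fech*, with r from 0.0529 to 0.190 in WT and from 0.0567 to 0.451 in KO. In counts this sparse, such weak values are no finding.

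Outside the erythroid barcodes, globin UMIs were few per cell and spread over every cell type of the KO library. The 1535 other WT cells held 691 globin UMIs, or 98.1 CPM (exact Poisson interval 91.0 to 106), and the 809 other KO cells held 5797 UMIs, a level of 1190.4 CPM (1159.9 to 1221). Per cell this was a mean of 0.450 in WT, at a median depth of 3966 UMIs, and 7.17 in KO, at 5195. The KO level was 12.1-fold the WT level, a log2 ratio of 3.60 (conditional binomial interval 3.49 to 3.72). No globin UMI was found in 1060 WT cells (69.1%) and 8 KO cells (0.989%). Thinned to 2000 UMIs, 14.1% of 1433 WT and 92.1% of 786 KO cells had one, so the gap remained at equal depth, with the 102 WT and 23 KO cells under that depth left out. All of these UMIs were of adult genes: the 3 embryonic genes had 0 in each of the 11 groups of other cells in both libraries, where the KO erythroid ratio would give 0.643 UMIs of *Hbb-bh1*, so embryonic globin was not detectable at this depth.

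All 4 adult genes were higher in the other cells of the KO library. *Hbb-bs* had 320 UMIs in WT and 3458 in KO, at 45.4 and 710.1 CPM, a log2 ratio of 3.97 (3.80 to 4.14). *Hba-a2* had 110 and 911, at 15.6 and 187 CPM, a log2 ratio of 3.58 (3.30 to 3.88), and *Hba-a1* had 114 and 812, at 16.2 and 167 CPM, a log2 ratio of 3.36 (3.08 to 3.66). *Hbb-bt* had 147 and 616, at 20.9 and 126 CPM, a log2 ratio of 2.60 (2.34 to 2.87). All 4 passed 2-fold, as did 8.36% of the 12351 genes with at least 20 UMIs in both libraries together, and the 3 embryonic genes had too few UMIs to be read. By size of the ratio the 4 ranked 130 to 233, and the median gene had a log2 ratio of 0.03. In KO the order of levels was *Hbb-bs*, *Hba-a2*, *Hba-a1*, *Hbb-bt*, with overlapping intervals for the alpha-type neighbours alone. In WT *Hbb-bs* was again the highest, and the intervals of *Hbb-bt*, *Hba-a1* and *Hba-a2* overlapped from each neighbour to the next.

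A pair of WT cells was singled out after their values were seen, and the first alone decided the ratio of *Hbb-bt*. It was macrophage-like and held 66 globin UMIs among its 5627, of which 65 were *Hbb-bt* and 1 was *Hbb-bs*. The second was endothelial-like and held 42 among 4549, as 10 *Hba-a1*, 11 *Hba-a2*, 17 *Hbb-bs* and 4 *Hbb-bt*. Without the first, the *Hbb-bt* log2 ratio was 3.44 (3.11 to 3.79). Without both, it was 3.51 (3.17 to 3.87) and that of all 7 genes 3.84, and the *Hbb-bt* share of beta-type UMIs in WT fell from 31.5% to 20.5% (16.6% to 24.9%). Another WT macrophage-like cell had 8 *Hbb-bt* UMIs among 4079 and no UMI of another globin. Both *Hbb-bt* cells were in the cluster led by *Pf4* and *C1qc*, with 12 and 9 UMIs of *C1qa* and 16 and 1 of *Lyz2*.

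The KO level was higher in each of the classes compared. Globins in the melanoblast-like cells (535 WT, 139 KO) had a WT level of 78.6 (68.1 to 90.3) and a KO level of 1116 CPM (1046 to 1189.7). The log2 ratio there was 3.83 (3.61 to 4.06), and all 4 adult genes passed 2-fold, as did 3.86% of 8135 genes. Glial-like cells (447 and 254) had a WT level of 87.4 (73.6 to 103) and a KO level of 1127.5 CPM (1068 to 1189), with a log2 ratio of 3.69 (3.44 to 3.95), and all 4 genes were past 2-fold against 3.87% of 8595. For mesenchymal-like cells (227 and 259) the WT level was 81.4 (65.7 to 99.7) and the KO level 1221 CPM (1167 to 1278). Here the log2 ratio came to 3.91 (3.61 to 4.22), and all 4 were past 2-fold against 5.99% of 8268 genes. Median depths in WT and KO were 4327 and 5654 UMIs in melanoblast-like, 3385 and 4208 in glial-like and 4447 and 5401 in mesenchymal-like cells, deeper in KO each time. The 4 genes ranked 7 to 16 in melanoblast-like, 10 to 20 in glial-like and 15 to 35 in mesenchymal-like cells, where the median genes had log2 ratios of -0.01, -0.01 and -0.00. Mesenchymal-like cells came mostly from a cluster led by *Crabp1* and *Twist2* in WT (171 of 227) and most often from one led by *Mfap4* and *Aspn* in KO (128 of 259), so the class is not the same mixture in both. Nor is the melanoblast-like class, where clustering at resolution 2 put 78 of its KO cells in a cluster with 1 WT cell, and 150 WT cells in a cluster with 3 KO cells. In the glial-like class, a cluster led by *Pou3f1* held 37 of the 447 WT and 59 of the 254 KO cells.

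Smaller classes followed. Macrophage-like cells (146 and 36) had a WT level of 183 (155 to 215) and a KO level of 1356 CPM (1223 to 1499), with a log2 ratio of 2.89 (2.61 to 3.17). Without the WT cell of 66 globin UMIs the WT level was 103 CPM (82.5 to 128) and the ratio 3.71 (3.37 to 4.07). Endothelial-like cells (21 and 8) stood at 549 and 1076 CPM, a log2 ratio of 0.97 (0.38 to 1.57), and without the WT cell of 42 globin UMIs 3 UMIs remained, at 38.7 CPM and a log2 ratio of 4.80 (3.17 to 7.12). In both classes 1 cell therefore set the WT level. Keratinocyte-like cells (12 and 81) had 84.3 and 1274 CPM, mast cell-like cells (92 and 3) 77.4 and 954, adipocyte-like cells (33 and 2) 68.2 and 1436, and neutrophil-like cells (7 and 7) 193 and 942. The 3 WT pericyte-like cells had 0 globin UMIs and the 5 KO ones 39, at 1299 CPM, and cells of an unnamed cluster (12 and 15) had 43.9 and 948 CPM.

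**Figure D2:**
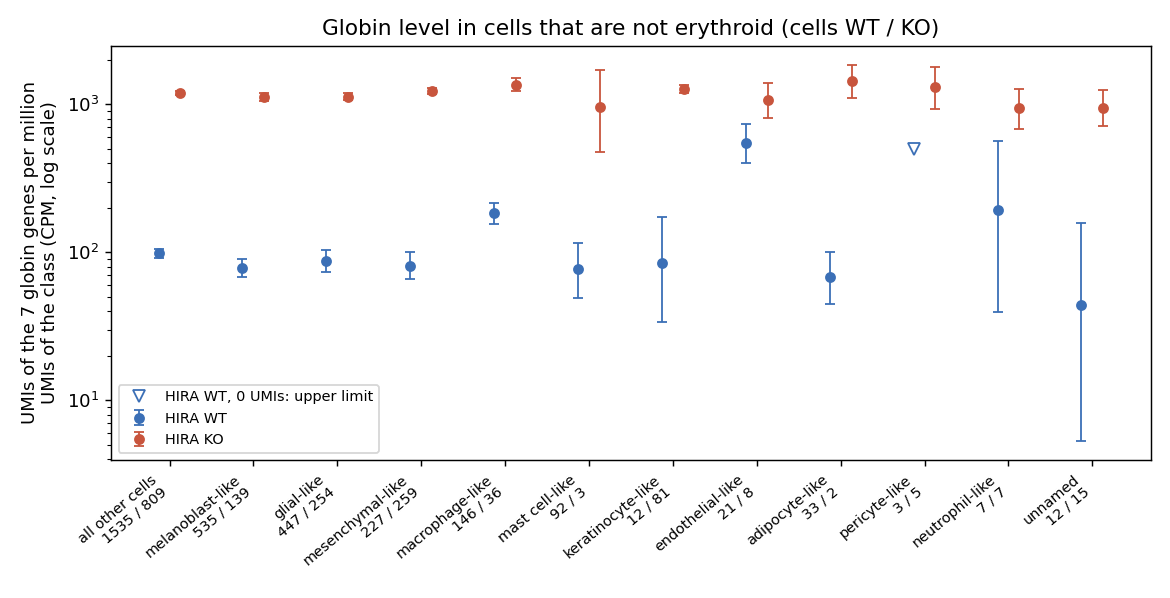
CPM of the 7 globin genes (vertical axis, log scale) in all other cells and in each class, with WT in blue, KO in red, bars for 95% Poisson intervals and cell numbers under each name. The KO classes lie between 942 and 1436 CPM and each WT class lies lower, with endothelial-like cells, set by 1 cell, the highest of WT.

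Within KO the level was much the same from class to class, and whether these UMIs are free RNA or low expression was not tested. Among the 5 KO classes with at least 100 globin UMIs, CPM ran from 1116 in melanoblast-like to 1356 in macrophage-like cells, and the intervals of mesenchymal-like, melanoblast-like and glial-like cells overlapped. Macrophage-like and keratinocyte-like cells stood above the melanoblast-like and glial-like ones beyond counting error. Globin UMIs per cell rose with depth, from a mean of 3.56 in the shallowest of 4 depth groups of KO cells to 12.8 in the deepest, while CPM ran from 1152 to 1209.6 over the groups. The WT depth groups ran from 87.5 to 102 CPM. Beyond depth, cells of 1 library varied little: the variance over the mean, given each cell's depth, was 1.10 in KO, and 8.56 in WT with the pair of globin-rich cells against 1.15 without them. The 12 KO barcodes removed for mitochondrial UMIs had more globin, at 2609.6 CPM, and the 3 such WT barcodes had 0 UMIs.

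Globin in the other cells and globin in erythroid barcodes differed between the libraries in the same direction. Erythroid barcodes without filter held 0.358% of the UMIs of the WT library and 2.49% of those of the KO library as globin, a ratio of 6.96, beside the ratio of 12.1 in the other cells. With 1 library each, whether the larger number of erythroid barcodes accounts for the level in the other cells was not tested.

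The mixture of globins in the other cells was not that of the erythroid barcodes. In KO, beta-type genes made up 70.3% (69.1% to 71.5%) of the globin UMIs of the other cells, against 49.7% in erythroid barcodes, and in WT 67.6% (64.0% to 71.1%), or 65.2% (61.2% to 69.0%) without the pair of globin-rich cells, against 50.4%. In KO the excess was of *Hbb-bs*, at 59.7% (58.4% to 60.9%) of globin UMIs in the other KO cells against 38.3% in erythroid ones. At the erythroid ratio the other KO cells would have had 2219.5 *Hbb-bs* UMIs, where 3458 were counted, and 1456 *Hba-a1* and 1462 *Hba-a2* UMIs, where 812 and 911 were counted. *Hbb-bt* was close to that ratio, with 616 UMIs counted against 658, which lies within the counting interval of 568 to 667. In WT the excess over that ratio was larger for *Hbb-bt*, with 147 UMIs against 81.8, than for *Hbb-bs*, with 320 against 266, and 65 of the 147 were from the macrophage-like cell. Without that cell 82 *Hbb-bt* and 319 *Hbb-bs* UMIs remained among 625 globin UMIs, and the order of the excesses turned round.

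The shift held across KO classes. In the 5 KO classes with at least 100 globin UMIs, beta-type genes made up 68.2% to 72.8%, and *Hbb-bt* 14.3% to 16.2% of the beta-type UMIs, against 22.9% in erythroid barcodes. Over the depth groups the KO beta-type share ran from 69.1% to 70.8%. *Alas2* in the other KO cells, with 6 UMIs, was near the 4.30 that its erythroid ratio to globin gives. The alpha-type split differed less, with *Hba-a2* at 52.9% (50.5% to 55.3%) of alpha-type UMIs in the other KO cells against 50.1% in erythroid barcodes. Over the 5 KO classes this share ran from 49.9% in mesenchymal-like to 63.5% (53.4% to 72.7%) in macrophage-like cells. The source of the globin UMIs in the other cells was not tested. No erythroid barcode of KO that passed the filters had a beta-type share above 56.9%, and the highest among the 6 removed for few genes was 63.7%.

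**Figure D3:**
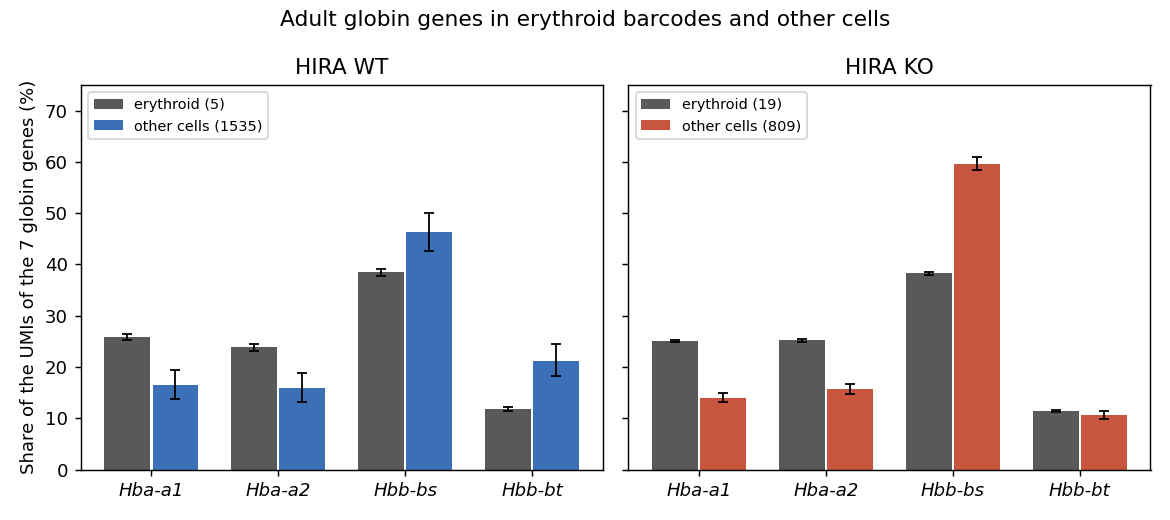
Share of the UMIs of the 7 globin genes (vertical axis, percent) taken by each adult gene in erythroid barcodes (grey) and in other cells (blue for WT, red for KO), with 95% Clopper-Pearson intervals. *Hbb-bs* takes a larger share in the other cells than in the erythroid barcodes of both libraries, and the alpha-type genes a smaller one.

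The genes sit in 2 clusters on GRCm38. The beta-type genes lie on the minus strand of chromosome 7 within 40693 bases, in the order *Hbb-bt* (ENSMUSG00000073940, chr7:103812524-103813996), *Hbb-bs* (ENSMUSG00000052305, chr7:103826534-103828096), *Hbb-bh1* (ENSMUSG00000052217, chr7:103841637-103843164) and *Hbb-y* (ENSMUSG00000052187, chr7:103851749-103853216). The embryonic genes are the first along the direction of transcription and the adult genes the last. The alpha-type genes lie on the plus strand of chromosome 11 within 20899 bases, as *Hba-x* (ENSMUSG00000055609, chr11:32276400-32278116), *Hba-a1* (ENSMUSG00000069919, chr11:32283511-32284465) and *Hba-a2* (ENSMUSG00000069917, chr11:32296489-32297298). Here too the embryonic gene comes first. All 7 are protein-coding genes of GENCODE.

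**Figure D4:**
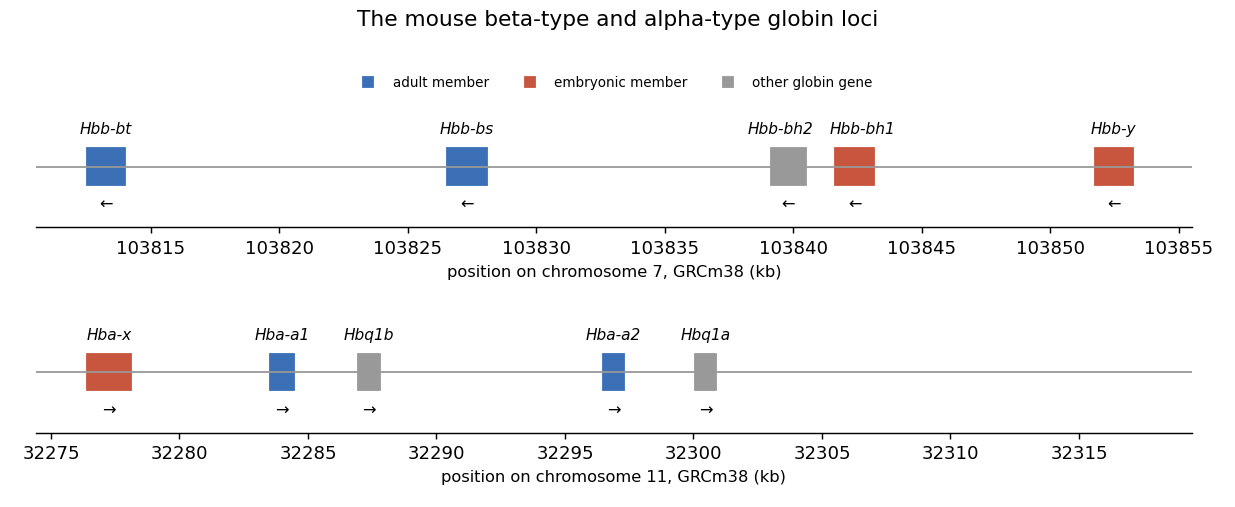
Map of the beta-type locus on chromosome 7 and the alpha-type locus on chromosome 11 of GRCm38 (horizontal axes, kb), with adult members in blue, embryonic members in red and other globin genes in grey, and arrows for the direction of transcription. In both loci the embryonic member or members lie upstream of the adult ones.

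Promoter windows of 300 bases from RefSeq (build GRCm38.p6), reaching 250 bases before the start, were found for 6 of the 7 members, without *Hbb-bh1*. They were searched on both strands for CCAAT, for CCNCNCCC (a box of the CACCC kind), for GATA sites (WGATAR, where W stands for adenine or thymine and R for a purine) and for the TATA-like box ATAAAA. Of all 32851 windows, 37.4% hold CCAAT on either strand, 49.5% CCNCNCCC, 29.8% a GATA site and 18.5% ATAAAA. On the gene's strand alone these shares are 21.1%, 29.1%, 17.0% and 11.1%. The motif CCAAT was found on the gene's strand in *Hba-a1* and *Hba-a2*, 88 and 91 bases before the start, in *Hbb-bs* and *Hbb-bt*, 76 and 75 bases before it, and in *Hbb-y*, 83 bases before it, and not in *Hba-x*. CCNCNCCC was found in *Hbb-bs* at 93, *Hbb-bt* at 107 and *Hba-x* at 83 bases. A GATA site was found in the windows of *Hba-a1*, *Hba-a2*, *Hba-x*, *Hbb-bs* and *Hbb-y* and none in *Hbb-bt*, and ATAAAA in *Hbb-y* alone, at 28 bases. The search for ATAAAA does not take other TATA-like letters, such as tataag in *Hbb-bs* and *Hba-a2* and tataaa in *Hbb-bt*, seen below. Lack of a match therefore does not show lack of a TATA box. These matches are a description of letters, many of which are common in other windows.

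The 150 bases before the start are printed for *Hbb-bs* and *Hbb-bt*, the adult beta-type genes, for *Hba-a2* as their alpha-type counterpart, and for *Hbb-y*, the member with 0 UMIs. They run 5′ to 3′ on the gene's strand, with motif matches of either strand in capitals. The stretches are chr7:103827929-103828078 (minus) for *Hbb-bs*, chr7:103813924-103814073 (minus) for *Hbb-bt*, chr11:32296342-32296491 (plus) for *Hba-a2* and chr7:103853208-103853357 (minus) for *Hbb-y*. GENCODE gene models begin further upstream and cover 150, 73, 3 and 9 of these bases.
Hbb-bs: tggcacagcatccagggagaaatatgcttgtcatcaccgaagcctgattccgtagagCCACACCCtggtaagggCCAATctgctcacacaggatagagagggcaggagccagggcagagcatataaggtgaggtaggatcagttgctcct
Hbb-bt: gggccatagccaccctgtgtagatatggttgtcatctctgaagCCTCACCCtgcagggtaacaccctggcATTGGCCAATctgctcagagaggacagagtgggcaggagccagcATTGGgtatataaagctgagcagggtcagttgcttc
Hba-a2: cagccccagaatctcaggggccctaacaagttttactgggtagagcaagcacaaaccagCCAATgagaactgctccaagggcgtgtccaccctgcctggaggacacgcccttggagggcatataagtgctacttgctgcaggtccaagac
Hbb-y: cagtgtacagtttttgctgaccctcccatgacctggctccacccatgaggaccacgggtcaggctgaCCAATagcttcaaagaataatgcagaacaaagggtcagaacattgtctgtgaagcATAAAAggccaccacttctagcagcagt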

How the data were processed

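UMI counts of 1 HIRA WT and 1 HIRA KO library were used as the authors deposited them, raw and per gene and barcode, without normalization. Per the submitters' processing notes they come from Cell Ranger 2.2.0 on mm10 with added reporter sequences. The analysis used igraph 0.11.9, pandas 2.3.3, matplotlib 3.10.9, scanpy 1.11.5, numpy 2.4.6, anndata 0.12.19 and scipy 1.17.1 under Python 3.11.15. Cells other than erythroid ones were clustered together without globin genes (2000 variable genes, 30 principal components, 15 neighbours, Leiden resolution 1, seed 0). Each cluster was named after the class of which most listed markers, as a share, were raised there, with a minimum of 3 (raised means a UMI in at least 10% of cells and at least 1 log2 unit over other cells, with 10 CPM added). A cluster whose 10 leading genes held more markers of another class than of its own had no name. No test was run, with 1 library per genotype. A ratio past 2-fold was read for genes with at least 20 UMIs. Limits for a count of 0 are those of 3 counts. Named genes were the 7 members, other globin genes, *Hira*, tdTomato, sex-linked genes, the 4 genes of each list with most UMIs in erythroid barcodes, lists with counts of 5 or fewer, and the genes most like the globins, apart from results left out because they need items withheld for evaluation. Members and lists were chosen with earlier results of these data known. Positions are those of GENCODE on GRCm38. Alternatives were other erythroid thresholds, filters, scalings, clusterings and left-out cells. The code was tested on simulated data.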

Additional observations from a re-analysis of the deposited data

How the results depend on the processing

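Among the values tallied here, no ratio of KO to WT in other cells changed sign under an alternative. Outside the tally, in endothelial-like cells, the log2 ratios of *Hba-a1* and *Hba-a2* were -0.78 and -0.32. Without the WT cell of 42 globin UMIs they turned to 2.60 and 3.18. Of 86 values under alternatives, 70 stayed within the counting interval of the reported value, or within 1.5 times it for counts of genes, and 16 moved beyond. Erythroid thresholds of 5%, 25% and 50% and leaving out barcodes found in both libraries affected no barcode, so 28 of the 70 could not differ. A minimum of 500 genes gave erythroid shares of 0% in WT and 0.492% in KO, and in KO an embryonic share of 0.00766% and a beta-type share of 48.4%, because few erythroid barcodes were left, and WT shares could not be given. Without the barcode with most embryonic UMIs, the WT beta-type share was 49.1% and the KO one 49.5%, so the order of the libraries in this share turned round. The log2 ratio of KO to WT in other cells was 3.99 with mean UMIs per cell, 3.74 without cells of over 1% globin (the WT macrophage-like cell of 66 globin UMIs), 3.14 as a mean of the classes' levels and, chosen after seeing the data, 3.84 without the pair of WT cells with most globin. With mean UMIs per cell it was 4.20 in melanoblast-like and 4.05 in glial-like cells, and 4.03 in glial-like cells thinned to 2000 UMIs. Mean UMIs per cell hold the depth difference. Non-globin scaling, also chosen after seeing the data, moved the genes called in erythroid barcodes from 89 to 368 in WT and from 37 to 1396 in KO. It turned the direction of the ferritin genes and *Prdx2* in both libraries, and in KO of genes such as *Blvrb*, *Urod*, *Ppox*, *Lmo2* and *Bcl11a*. No paired analysis was possible because there was 1 library per genotype. WT erythroid values rest on 5 barcodes, and 3 embryonic UMIs there cannot show a difference from 20 in KO. Free RNA and low expression cannot be told apart in these counts.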

Other observations

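Macrophages take up haemoglobin and break down haem, and genes of that path were read in macrophage-like cells against all other non-erythroid cells of the same library. The genes named were chosen after their values were seen. *Hmox1*, whose enzyme opens the haem ring, stood at 679 CPM (623 to 738) in the 146 WT macrophage-like cells and 19.3 CPM in the other 1389 cells, and in KO at 238 CPM (184 to 302) in 36 cells against 14.4 CPM in 773. *Slc40a1*, which encodes the iron exporter ferroportin, stood at 285 against 2.57 CPM in WT and 95.8 against 3.92 CPM in KO. *Cd163*, which encodes the receptor for haemoglobin bound to haptoglobin, had 79 UMIs (96.6 CPM) in WT macrophage-like cells and 3 UMIs in the others, and 2 UMIs (7.10 CPM) and 0 in KO. *Hpx*, which encodes the haem carrier haemopexin, had 0 UMIs in both libraries. In macrophage-like cells *Hmox1*, *Slc40a1* and *Cd163* were thus lower in KO beyond their intervals, as were *Blvra* (103 CPM against 214 in WT) and *Slc48a1* (46.1 against 117). *Blvra* was lower in KO outside the class as well (32.5 against 53.2). Within the class *Lrp1* alone was higher in KO beyond its interval (117 against 55.0), and it was higher in the cells outside the class as well (49.7 against 20.9). In macrophage-like cells *Hp* (142 against 90.5), *Vcam1* (39.0 against 18.3) and *Spic* (7.10 against 1.22) were also higher in KO, with overlapping intervals. Outside the class *Hp* (15.9 against 3.37) and *Vcam1* (33.1 against 21.5) were higher in KO beyond their intervals, and *Spic* had 0 UMIs in both libraries. The KO cells were split evenly between the clusters led by *Plac8* and by *Pf4* (18 and 18), unlike the WT cells (50 and 96), so the mixture of cells differs as well. Of the 10 leading genes of the *Plac8* cluster, 1 was a listed macrophage marker. At resolution 0.5 a cluster of 55 WT and 24 KO cells, with *Plac8* among its leading genes, was named neutrophil. Levels in the *Pf4* cluster alone were not read.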
